A study of Mus musculus with 12 samples.

Results

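The genes described here are 9 markers of macrophages and of the red pulp of the spleen, taken by symbol from both FPKM tables of a mouse leukaemia study: Csf1r, Emr1, Cd68, Lyz2, C1qa, C1qb, C1qc, Spic and Slc40a1. All 9 were found, each on 1 line, among the 23174 genes of each table. In the 6 tumours their summed level ran from 33.3 to 377.2 FPKM (a read density corrected for transcript length and library size), and in the 6 ex vivo cultures from 1.68 to 4.41 FPKM. The highest sum, in a wild-type tumour, held 276.1 FPKM of Lyz2 alone, a gene that neutrophils use too. Without Lyz2 the sums ran from 32.8 to 107.0 FPKM in the tumours, highest in a knockout tumour, and from 1.68 to 3.75 FPKM in the cultures. Between genotypes none of the 9 passed the test, and for none did the 3 knockout tumours lie wholly above or below the 3 wild-type tumours. The differences that stood out were between single tumours, and the 9 genes did not share 1 order over them.

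Macrophages are tissue phagocytes that depend on signals through the receptor Csf1r. In the spleen, red pulp macrophages take up ageing red cells, break down their haem and return the iron to the blood through the exporter ferroportin. Their identity rests on the transcription factor SpiC, whose gene is switched on by haem when the repressor Bach1 is lost. Macrophages are also a main source of the 3 chains of C1q, the protein that starts the classical complement pathway. Most of these genes are used as markers of myeloid cells rather than T cells, although Cd68 and Slc40a1 are also known from other cell types.

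All 12 samples were T-ALL cells of the C57BL/6 strain, that is, acute lymphoblastic leukaemia of immature T cells, and carried Notch1-deltaE+, an activated Notch1. The primary tumours were 3 Cxcr4+/+ tumours, numbered 1, 2 and 4 (wild type), and 3 Cxcr4-/- tumours, numbered 5, 7 and 8 (knockout). The cultures were 3 samples given AMD3100, an antagonist of the receptor CXCR4, and 3 given vehicle. Their Cxcr4 genotype is not labelled. Per the labels the cells came from spleen and were kept with 5 ng/ml IL-7 on mitomycin-treated OP9 cells, a mouse bone marrow stromal line made from animals that lack functional Csf1. The labels give this culture for the tumours too, and do not say whether RNA was taken before or after it. The sources used here do not give the animals' ages, the cells in which Cxcr4 was deleted, or the dose and time of AMD3100. Whether replicates were different animals or cultures is not stated either, so the p-values speak of the spread among these samples alone, and that spread may be technical.

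The promoters of 5 of the 9 genes, Cd68, Lyz2, C1qb, C1qc and Spic, were matched by symbol in a RefSeq table of build GRCm38.p6. The 3 shown belong to 2 neighbouring C1q genes, whose balance shifted from tumour to tumour, and to the gene of the red pulp factor SpiC. Each is the 250 bases before the gene's start, 5′ to 3′ along the gene, which is on the minus strand in all 3. They lie at chr4:136886201-136886450 (C1qb), chr4:136892915-136893164 (C1qc) and chr10:88683024-88683273 (Spic). Capitals mark AGGAAGT, a core recognised by ETS factors of the PU.1 and SpiC family (read as ACTTCCT where it stands on the other strand), and TGCTGAG, part of the element bound by MAF proteins and Bach1.
C1qb: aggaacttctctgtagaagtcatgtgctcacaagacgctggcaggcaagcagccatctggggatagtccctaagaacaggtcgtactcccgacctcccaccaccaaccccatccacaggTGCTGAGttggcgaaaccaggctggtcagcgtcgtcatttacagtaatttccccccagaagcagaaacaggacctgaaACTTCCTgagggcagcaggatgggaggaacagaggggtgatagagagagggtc
C1qc: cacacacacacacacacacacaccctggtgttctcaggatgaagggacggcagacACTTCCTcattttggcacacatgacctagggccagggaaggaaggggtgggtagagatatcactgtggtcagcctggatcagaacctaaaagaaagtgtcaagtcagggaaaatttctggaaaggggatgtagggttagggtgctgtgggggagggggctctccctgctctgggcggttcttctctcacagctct
Spic: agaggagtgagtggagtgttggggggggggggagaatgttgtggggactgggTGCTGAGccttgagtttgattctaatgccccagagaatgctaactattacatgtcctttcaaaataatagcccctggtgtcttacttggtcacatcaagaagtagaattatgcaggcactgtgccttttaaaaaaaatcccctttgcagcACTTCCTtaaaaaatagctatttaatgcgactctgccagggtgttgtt
AGGAAGT stood on the opposite strand in all 3, beginning 53 bases before the start in C1qb, 195 in C1qc and 48 in Spic. It was in 4 of the 5 matched promoters, Cd68 being the exception, and in 7.69% of 32851 promoter windows of the same length, both strands searched. The motifs marked or counted here were chosen after these sequences were seen, so setting such shares side by side is no test of enrichment. TGCTGAG stood on the gene's strand 131 bases before the start in C1qb and 198 bases before it in Spic, and in 6.21% of all windows. TGAGTCA, the site of AP-1 factors, was found in Cd68 alone of the 5, at 149 and 24 bases before the start, and in 4.46% of all windows. No marked motif overlaps another in these windows. A match of letters is a description of the window and says nothing of binding in these tumours.

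Several values of the whole libraries bear on these genes. Summed FPKM ran from 368118 to 581159 in the tumours and from 444803 to 480468 ex vivo. The numbers of reads are unknown, and the tables were normalised separately, so levels in the tumours and ex vivo stand side by side with no test. Since Gapdh, a housekeeping gene, had values of 0 or close to it in every library, 0 may be a failed estimate and a gene is only said to be listed at 0. Cxcr4 stood at 241, 155 and 206 FPKM in wild-type tumours 1, 2 and 4 and at 23.2, 78.9 and 21.9 FPKM in knockout tumours 5, 7 and 8. The groups did not overlap for Cxcr4, in the direction of the labels (log2 change -2.49, SE 0.513, adjusted p = 0.986 in limma). Knockout tumour 8 had 13231 genes listed at 0, against 10423 to 11433 in the other tumours. Markers of other blood cells were in the tumours as well. The haemoglobin genes held 1.29% (tumour 1), 5.48% (tumour 2) and 23.0% (tumour 4) of all FPKM in wild type and 20.4% (tumour 5), 2.76% (tumour 7) and 6.55% (tumour 8) in knockout. The 22 neutrophil markers summed to 261.7, 3464 and 18.4 FPKM in wild-type tumours 1, 2 and 4 and to 111.3, 445.1 and 306.8 FPKM in knockout tumours 5, 7 and 8. The T-cell genes that mark the labelled cell type, 20 of 20 above the filter, summed to 2439 to 9667 FPKM. The wild-type tumours also had Xist at 143, 96.4 and 147 FPKM and the knockout tumours at 0.829, 2.80 and 2.69 FPKM, so that sex and genotype cannot be told apart in any value below.

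Csf1r, the receptor for the macrophage growth factors Csf1 and interleukin 34, was at 1.92, 16.2 and 0.661 FPKM in wild-type tumours 1, 2 and 4. In knockout tumours 5, 7 and 8 it was at 6.11, 4.35 and 4.25 FPKM. The knockout values lay close together and inside the wide wild-type range, whose highest and lowest values were 24.6 times apart. Group means were 6.27 ± 8.64 and 4.90 ± 1.05 FPKM (SD, n = 3 each), and the log2 change from wild type to knockout was 0.42 (SE 0.843, 95% interval -1.56 to 2.40, adjusted p = 0.995 in limma). All log2 changes given were computed from log2(FPKM + 1), so those of low genes come out smaller than the change in FPKM. As these are bulk samples, fewer macrophages and less RNA per macrophage cannot be told apart.

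Emr1, which encodes a surface receptor now named Adgre1, the classic antigen of mouse macrophages, was the lowest of the 9. It was at 0.286, 3.75 and 0 FPKM in wild-type tumours 1, 2 and 4 and at 0.855, 0.368 and 0.387 FPKM in knockout tumours 5, 7 and 8. Wild-type tumour 2 stood 4.39 times above the next tumour, and wild-type tumour 4 was listed at 0. With a mean of 0.942 FPKM over the tumours, Emr1 was under the minimum of 1 FPKM that genes had to reach to be tested. Fitted without that minimum it had a log2 change of -0.27 (SE 0.587, adjusted p = 0.962).

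Cd68, a glycoprotein of lysosomes abundant in macrophages, varied least. It was at 7.34, 24.3 and 7.04 FPKM in wild-type tumours 1, 2 and 4 and at 11.9, 5.17 and 16.5 FPKM in knockout tumours 5, 7 and 8. The lowest and the highest were 4.70-fold apart, and the genotypes overlapped, with group means of 12.9 ± 9.88 and 11.2 ± 5.69 FPKM (SD, n = 3 each). The log2 change was -0.095 (SE 0.597, 95% interval -1.50 to 1.31, adjusted p = 0.998).

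Lyz2, which encodes lysozyme and is used by neutrophils as well as macrophages, was the most abundant of the 9 in mean level and the most variable. It was at 22.2, 276.1 and 0.474 FPKM in wild-type tumours 1, 2 and 4, a 583-fold range. In knockout tumours 5, 7 and 8 it was at 28.2, 30.3 and 17.6 FPKM, between the wild-type extremes. Group means were 99.6 ± 153 and 25.4 ± 6.84 FPKM (SD, n = 3 each), with a log2 change of 0.28 (SE 1.65, 95% interval -3.59 to 4.16, adjusted p = 0.998). The same pair of tumours held the extremes of the neutrophil markers, which do not include Lyz2. S100a9, the most abundant of these markers, was at 1393 FPKM in wild-type tumour 2, at 0.949 FPKM in wild-type tumour 4 and at 9.33 to 118.9 FPKM in the other tumours. Centred on its own mean over the tumours, the log2 profile of Lyz2 differed from the neutrophil list's mean profile by a root mean square of 0.876. From Csf1r, the nearest of the 9, it differed by 1.28. Csf1r was itself 0.921 from the neutrophil list and Emr1 1.08. From the mean profile of a list of other macrophage genes, Lyz2 differed by 1.70, Csf1r by 0.618 and Emr1 by 0.435. Lyz2 alone of the 9 was nearer to the neutrophil list than to that macrophage list. Such distances also depend on how widely each profile ranges. What part the neutrophils had in the level of Lyz2 was not tested.

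**Figure D1:**
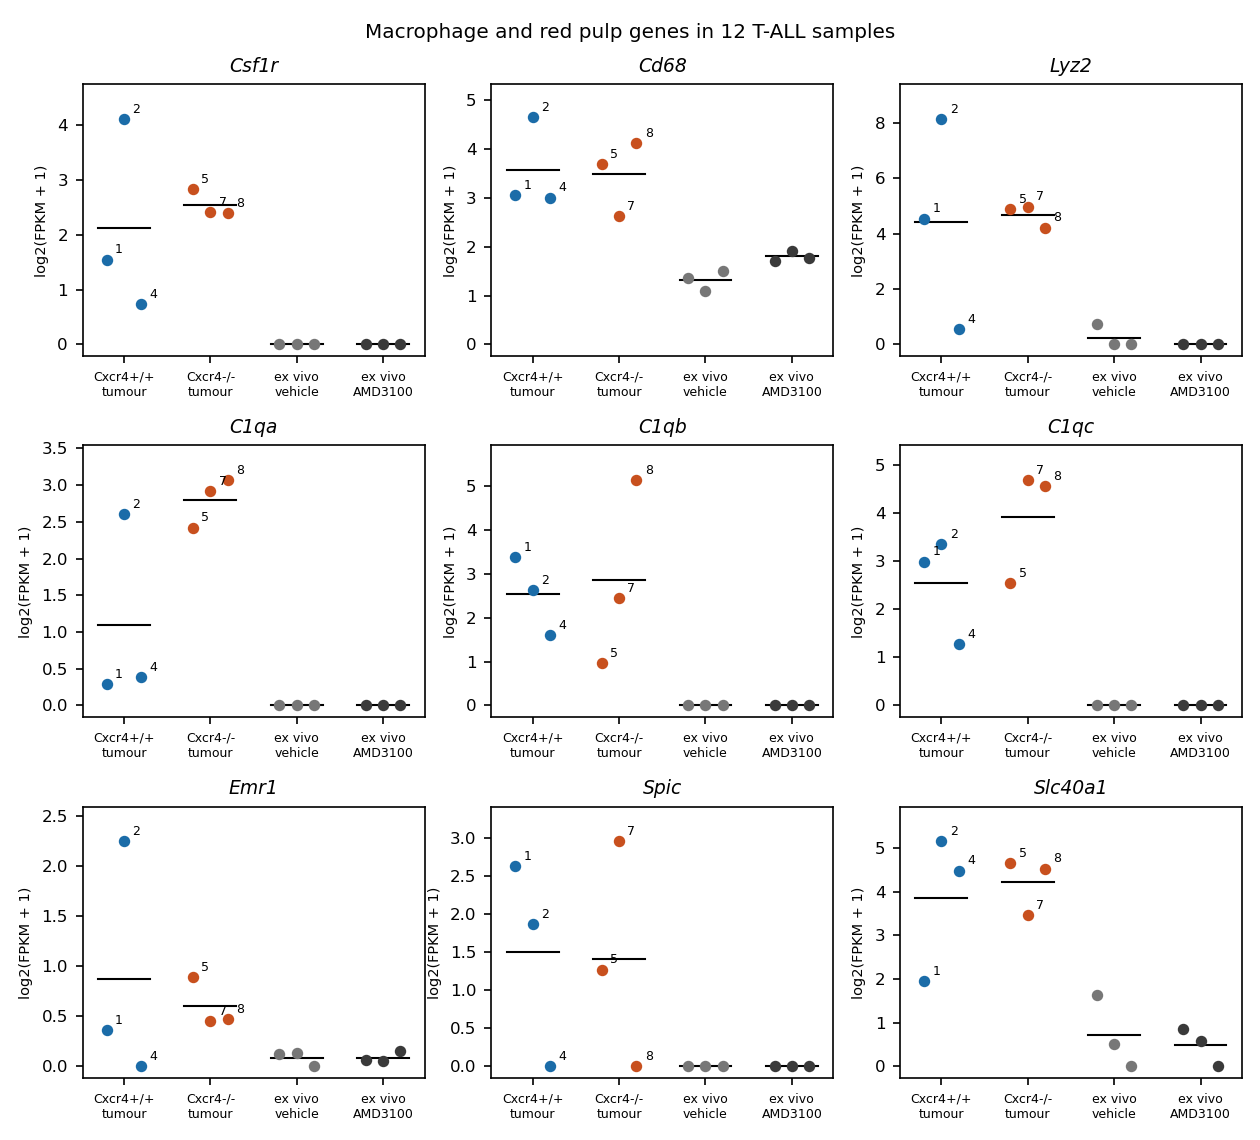
Level of each of the 9 genes in every sample, as log2(FPKM + 1), in wild-type tumours, knockout tumours, vehicle cultures and AMD3100 cultures. Points are samples, lines are group means and small numbers name the tumours. Tumour values spread widely within each genotype and overlap between genotypes, and 5 genes are listed at 0 in all 6 cultures.

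The chains of C1q are encoded by C1qa, C1qc and C1qb, which are neighbours on chromosome 4 between Ephb2 and Epha8, and the protein needs all 3 chains. C1qa was at 0.220, 5.09 and 0.307 FPKM in wild-type tumours 1, 2 and 4 and at 4.36, 6.55 and 7.37 FPKM in knockout tumours 5, 7 and 8. It came nearest to a separation of the genotypes: 1 wild-type value, that of tumour 2, lay above 1 knockout value, that of tumour 5. Group means were 1.87 ± 2.79 and 6.10 ± 1.55 FPKM (SD, n = 3 each), and the log2 change was 1.71 (SE 0.698, 95% interval 0.0695 to 3.35, adjusted p = 0.986). Of the 8 genes of the set that were tested, C1qa alone had an unadjusted p under 0.05 in limma, where 4.28% of all 10741 genes tested had one, and it did not pass the adjustment. In the fit without a minimum level, which holds all 9 genes, none had an unadjusted p under 0.05.

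C1qc was at 6.94, 9.28 and 1.43 FPKM in wild-type tumours 1, 2 and 4 and at 4.83, 24.6 and 22.5 FPKM in knockout tumours 5, 7 and 8. Knockout tumours 7 and 8 exceeded every wild-type tumour, and knockout tumour 5 lay below wild-type tumours 1 and 2. The means were 5.88 ± 4.03 and 17.3 ± 10.9 FPKM, with a log2 change of 1.38 (SE 0.765, 95% interval -0.414 to 3.18, adjusted p = 0.986). C1qb was at 9.37, 5.22 and 2.04 FPKM in wild-type tumours 1, 2 and 4 and at 0.958, 4.47 and 34.0 FPKM in knockout tumours 5, 7 and 8. Both the lowest and the highest value of C1qb were thus in knockout tumours, and tumour 8 was 3.63 times the next. Its log2 change was 0.31 (SE 1.04, 95% interval -2.13 to 2.75, adjusted p = 0.998). Summed over the chains, C1q stood at 16.5, 19.6 and 3.78 FPKM in wild-type tumours 1, 2 and 4 and at 10.2, 35.6 and 63.9 FPKM in knockout tumours 5, 7 and 8.

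The balance of the 3 chains was not constant. C1qa made up 1.33% of the summed C1q level in wild-type tumour 1, 26.0% in wild-type tumour 2 and 8.13% in wild-type tumour 4. In knockout tumours 5, 7 and 8 its share was 43.0%, 18.4% and 11.5%. C1qb took more than C1qa in wild-type tumour 1, at 56.7%, and less in knockout tumour 5, at 9.44%. The ratio of C1qb to C1qa thus ran from 0.220 in knockout tumour 5 to 42.5 in wild-type tumour 1. C1qc was steadier, with 35.2% to 69.1% of the sum. The low levels, some under 1 FPKM, come with an unknown number of reads, so how much of this spread counting error could give was not tested.

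**Figure D2:**
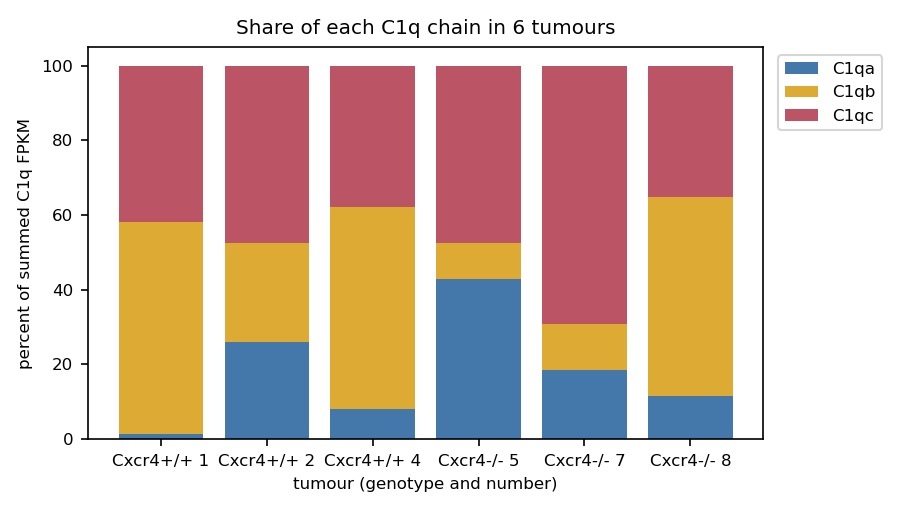
Shares of C1qa, C1qb and C1qc in their summed FPKM, in percent, as a stacked bar for each of the 6 tumours. The share of C1qa runs from 1.33% in wild-type tumour 1 to 43.0% in knockout tumour 5, with both genotypes spread over the range.

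Spic, the gene of the red pulp factor, was at 5.20, 2.66 and 0 FPKM in wild-type tumours 1, 2 and 4 and at 1.42, 6.78 and 0 FPKM in knockout tumours 5, 7 and 8. It was listed at 0 in 1 tumour of each genotype, and its highest value was in knockout tumour 7. The group means were 2.62 ± 2.60 and 2.73 ± 3.57 FPKM (SD, n = 3 each), with a log2 change of -0.090 (SE 0.961, 95% interval -2.35 to 2.17, adjusted p = 0.998). The mean in FPKM and the log2 change differ in sign here, and both are small beside the spread. They also differ in sign for Csf1r, Lyz2 and Slc40a1, each with a lower knockout mean and a log2 change above 0.

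Slc40a1 encodes ferroportin, the only known iron exporter, which hepcidin removes from the cell surface, and developing red cells use it as well as macrophages. It was at 2.86, 34.6 and 21.3 FPKM in wild-type tumours 1, 2 and 4 and at 24.3, 10.1 and 22.0 FPKM in knockout tumours 5, 7 and 8. Wild-type tumour 1 was the lowest and wild-type tumour 2 the highest, 12.1-fold apart, with all knockout tumours between them. The means were 19.6 ± 15.9 and 18.8 ± 7.67 FPKM, with a log2 change of 0.36 (SE 0.822, 95% interval -1.57 to 2.29, adjusted p = 0.995).

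The red pulp pair did not follow each other over the tumours. Spic was highest in knockout tumour 7 and wild-type tumour 1, the 2 tumours with the lowest Slc40a1. The 4 tumours with the most Slc40a1 (wild-type 2, knockout 5, knockout 8 and wild-type 4) were the 4 with the largest share of haemoglobin genes. Wild-type tumour 1 and knockout tumour 7, with the least Slc40a1, were lowest in haemoglobin as well. Within the 4 the orders differed, since wild-type tumour 2 led Slc40a1 with 5.48% haemoglobin while wild-type tumour 4 had 23.0%. In root mean square difference of centred log2 values, Slc40a1 was 0.805 from Cd68 and 0.963 from the mean of the erythroid list. What part erythroid cells had in the level of Slc40a1 was not tested.

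**Figure D3:**
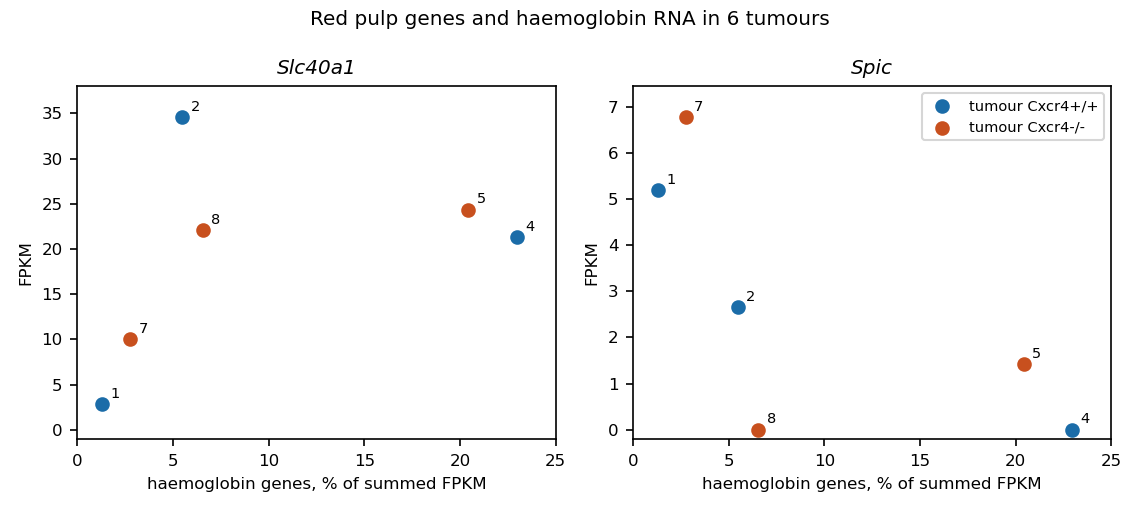
Slc40a1 and Spic, in FPKM, against the share of haemoglobin genes in the summed FPKM, in percent, for the 6 tumours. The 4 tumours with the most Slc40a1, at 21.3 to 34.6 FPKM, have haemoglobin shares of 5.48% to 23.0%. Spic is at its highest, 5.20 and 6.78 FPKM, at shares of 1.29% and 2.76%.

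Set side by side, the 9 genes gave no single ranking of the tumours. Wild-type tumour 2 was highest for Csf1r, Emr1, Cd68, Lyz2 and Slc40a1, knockout tumour 8 for C1qa and C1qb, and knockout tumour 7 for C1qc and Spic. Wild-type tumour 4 was lowest for Csf1r, Lyz2, C1qc and Emr1, and shared the lowest place for Spic. Against Cd68 in the same tumour, the summed C1q level was 2.25, 0.806 and 0.537 times as high in wild-type tumours 1, 2 and 4. In knockout tumours 5, 7 and 8 it was 0.852, 6.90 and 3.88 times as high. The nearest pairs of profiles were Emr1 with Cd68, at a root mean square difference of 0.470, and Emr1 with Csf1r, at 0.474. Emr1 averaged 0.942 FPKM, and at so low a level the log2(FPKM + 1) scale narrows a profile. How far this brought Emr1 near to other genes was not tested. The C1q genes lay farther apart, with C1qa at 0.824 and C1qb at 1.06 from C1qc. C1qa and C1qb were 1.54 from each other, and C1qa was nearer to Csf1r, at 0.807, than to C1qb or C1qc. These distances are descriptions over 6 tumours that share libraries and depth.

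**Figure D4:**
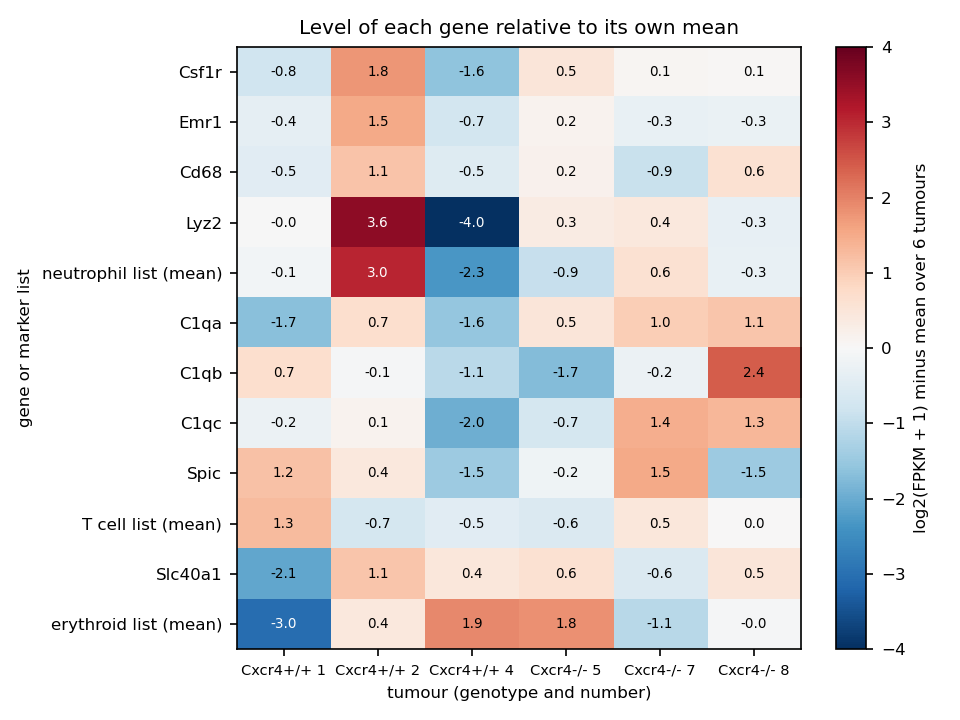
Heat map of log2(FPKM + 1) centred on each row's mean over the 6 tumours, for the 9 genes and for the means of the neutrophil, T-cell and erythroid marker lists. Wild-type tumour 2 is high for Csf1r, Emr1, Cd68, Lyz2 and the neutrophil list, and wild-type tumour 4 is low for Lyz2 and the neutrophil list.

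Across all genes of the tumour comparison, limma called 4 of 10741, or 0.0372%, at an adjusted p under 0.05. Of the 9 genes, 8 reached the minimum and 0 were called, with 1 at an unadjusted p under 0.05. In the 8, 6 log2 changes were above 0 and 2 below it, with a median of 0.33. Among the 6, Csf1r, Lyz2 and Slc40a1 had a lower mean FPKM in knockout than in wild type. Of all 10741 genes tested, 5123 had a log2 change above 0, and the median was -0.026. Leaving out a single tumour turned the sign for Csf1r, Cd68, Lyz2, C1qb, Spic and Slc40a1, and for neither C1qa nor C1qc. Marker lists of other cell types had 0 genes called. Most genes were above 0 in the lists of NK cells (10 of 10, median 0.99), B cells (6 of 6, 0.82) and dendritic cells (5 of 6, 0.78). The erythroid list had 22 of 24 lines above 0 (0.48). The neutrophil list had 4 of 14 above 0 (median -0.40) and the monocyte list 8 of 17 (-0.35). The T-cell list had 12 of 20 (0.15), the platelet list 2 of 4 (0.19) and the stroma list 2 of 4 (-0.62). Their part in the values of the 9 genes was not tested. The genotypes did not overlap for 9.21% of the genes tested and for 0 of the 9. With 3 tumours a group, the 95% interval of each of the 8 but Cd68 includes changes of more than 4-fold in at least 1 direction.

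**Figure D5:**
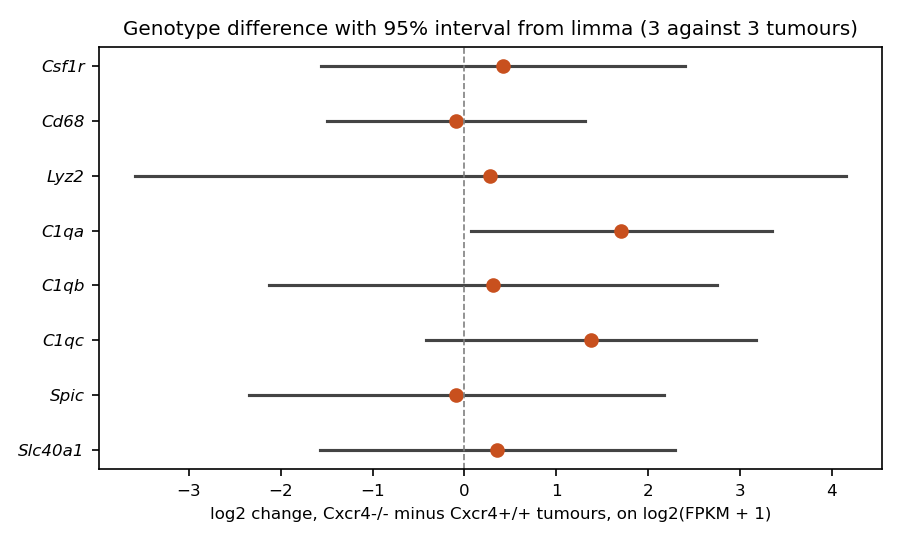
Log2 change from wild-type to knockout tumours on the log2(FPKM + 1) scale, with its 95% interval from limma, for the 8 genes that reached a mean of 1 FPKM. Every interval but that of C1qa, 0.0695 to 3.35, includes 0.

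In the ex vivo cultures most of the 9 genes were listed at 0. Csf1r, C1qa, C1qb, C1qc and Spic were listed at 0 in all 6 samples, as were 37.3% of all genes. Lyz2 was listed at 0.653 FPKM in vehicle sample 1 and at 0 in the other 5 samples. Emr1 was at 0.0915, 0.101 and 0 FPKM in vehicle samples 1 to 3 and at 0.0431, 0.0366 and 0.114 FPKM with AMD3100. Scaled by the libraries' relative depth, these Emr1 values are 2, 2 and 0 and 1, 1 and 3 times the smallest step, which shows how few reads lie behind them. Slc40a1 was at 2.10, 0.435 and 0 FPKM with vehicle and at 0.825, 0.491 and 0 FPKM with AMD3100. For Slc40a1 the 2 groups were ordered alike by replicate number and overlapped.

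Cd68 was the exception, being present in every culture. It was at 1.56, 1.14 and 1.83 FPKM in vehicle samples 1 to 3 and at 2.28, 2.77 and 2.43 FPKM in AMD3100 samples 1 to 3. All 3 AMD3100 values lay above all 3 vehicle values, a separation in this direction that 13.1% of the 10245 genes tested ex vivo had. The means were 1.51 ± 0.345 and 2.50 ± 0.249 FPKM (SD, n = 3 each), with a log2 change of 0.48 (SE 0.219, 95% interval -0.0522 to 1.02, adjusted p = 0.271 in limma). With same-numbered samples paired as a replicate block, the change had an SE of 0.177 and an adjusted p of 0.112. Neither fit called Cd68. Without the block limma called 13 genes, or 0.127%, and 21.5% had an unadjusted p under 0.05, Cd68 not among them. With the block it called 2036 genes, or 19.9%.

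Other macrophage genes were present in the tumours as well, and none of them passed the genotype test. A list of them summed to 113.0 FPKM in wild-type tumour 4 and to 291.6 to 503 FPKM in the other tumours. In the cultures the list summed to 87.0 to 227.6 FPKM, so wild-type tumour 4 lay within their range. Of 53 listed, 51 were in the tables, 31 reached the minimum in the tumours, 17 had a log2 change above 0 and 14 below, and 0 were called (1 at an unadjusted p under 0.05, median 0.14). The most abundant were Fcer1g, a signalling chain of Fc receptors, Sepp1, the selenium carrier selenoprotein P, and Ctss, a lysosomal protease. Sepp1 and Fcer1g were not low in all cultures. Sepp1 averaged 53.3 FPKM with vehicle and 32.3 FPKM with AMD3100, against 49.4 and 53.3 FPKM in wild-type and knockout tumours, and Fcer1g was at 47.0 and 118.7 FPKM in vehicle and AMD3100 sample 3 and at no more than 0.338 FPKM in the other cultures. Ctss did not exceed 2.62 FPKM in any culture. It was at 43.6, 55.1 and 19.7 FPKM in wild-type tumours 1, 2 and 4 and at 27.9, 61.9 and 83.1 FPKM in knockout tumours 5, 7 and 8, with knockout tumour 8 highest and wild-type tumour 4 lowest. The gene with the unadjusted p under 0.05 was Fcna, a ficolin of spleen and liver macrophages, at 0, 0.211 and 0.969 FPKM in wild type and 0.984, 4.74 and 9.52 FPKM in knockout (log2 change 1.88, SE 0.711, adjusted p = 0.986). Timd4, Vsig4, Trem2 and Clec4f, markers of resident macrophages of several tissues, were listed at 0 in all 6 tumours. They and Fcna are named for these values. Treml4 and Itgad, 2 genes known from red pulp macrophages and chosen after their values were seen, had maxima of 7.56 FPKM (wild-type tumour 2) and 4.21 FPKM (knockout tumour 7). Ex vivo, 22 of the 51 genes were listed at 0 in all samples. Of the 13 kept there, 0 were called without the block and 1 with it, where 19.9% of all genes were called with the block. That gene was Maf, a transcription factor of macrophages that T cells use too, which rose by 1.46 on the log2 scale (adjusted p = 0.0383).

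Genes of haem breakdown and iron handling, the work of red pulp macrophages, were tested in the same way where they reached the minimum. Of 31 listed, 30 were in the tables and 23 were kept in the tumours, 14 with a log2 change above 0 and 9 below. Limma called 0 of the 23, with 0 at an unadjusted p under 0.05 (median 0.14). Fth1, a chain of the iron store ferritin, was at 202.9, 775.1 and 1154 FPKM in wild-type tumours 1, 2 and 4 and at 1102, 380.4 and 515.7 FPKM in knockout tumours 5, 7 and 8. Ftl1, the other ferritin chain, was highest in the same pair, wild-type tumour 4 (729.4 FPKM) and knockout tumour 5 (648.7 FPKM). Blvrb, a biliverdin reductase abundant in red cells, ranged from 9.95 FPKM in wild-type tumour 1 to 1040.0 FPKM in wild-type tumour 4, with 800.4 FPKM in knockout tumour 5. These were the 2 tumours with the largest haemoglobin share. Hmox1, the inducible haem oxygenase, had another order, from 1.28 FPKM in wild-type tumour 4 to 16.9 FPKM in knockout tumour 8. Bach1, the haem-sensing repressor of Spic, was at 24.4, 13.4 and 24.8 FPKM in wild type and at 17.1, 12.4 and 11.4 FPKM in knockout, and the groups overlapped. Hmox1 and Bach1 were chosen after their values were seen. Fth1, Ftl1, Hmox1 and Bach1 were also present in the cultures, where Csf1r, the C1q chains and Spic were listed at 0. With vehicle and AMD3100, Fth1 averaged 380.9 and 313.4 FPKM, Ftl1 336.9 and 427.4, Hmox1 5.72 and 8.08, and Bach1 23.3 and 29.1. Blvrb did not exceed 5.10 FPKM there. The list summed to 1499 to 2163 FPKM in the cultures and 1094 to 4465 FPKM in the tumours. How much of this came from macrophages was not tested. Ex vivo, 21 iron genes were kept and 0 called without the block (4 at an unadjusted p under 0.05, where 21.5% of all genes had one). With the block 4 of the 21 were called, a share near the 19.9% of all genes. Bach1 rose by 0.31 on the log2 scale, and Steap3, a reductase of endosomal iron, Blvra, the other biliverdin reductase, and Hp, the haemoglobin-binding haptoglobin, fell by 0.70, 0.73 and 0.79.

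Of the rest of the complement system, 30 of 31 listed genes were in the tables and 11 were kept in the tumours, 4 with a log2 change above 0 and 7 below. Limma called 0, with 0 at an unadjusted p under 0.05 (median -0.084). C1s, a protease that joins C1q in the first complement component, was listed at 0 in all tumours, and so was the regulator Serping1, both named for these values. Calr and C1qbp, proteins of every cell that can bind C1q, were the most abundant of the list. C1qbp was at 73.2, 187.7 and 134.8 FPKM in wild-type tumours 1, 2 and 4 and at 92.3, 96.9 and 115.7 FPKM in knockout tumours 5, 7 and 8. Ex vivo, 8 genes of the list were kept, 0 were called without the block (3 at an unadjusted p under 0.05) and 3 of the 8 with it, where 19.9% of all genes were called. These 3 fell: C3, the central complement protein (by 1.12 on the log2 scale), Calr (by 0.38) and C1qbp (by 0.35).

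Csf1, the ligand of Csf1r, was in every tumour, at 34.9, 11.4 and 5.46 FPKM in wild-type tumours 1, 2 and 4 and at 16.6, 28.2 and 22.7 FPKM in knockout tumours 5, 7 and 8. Wild-type tumour 1 had the most Csf1 and the second lowest Csf1r, so ligand and receptor were not ordered alike. Csf1 did not exceed 0.795 FPKM in any culture. Of the 11 colony-stimulating factors and receptors other than Csf1r, 5 were kept in the tumours, and limma called 0, with 0 at an unadjusted p under 0.05.

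Of 8374 other genes averaging 5 FPKM or more over the tumours, those nearest in profile to the mean of the 3 C1q genes were Pglyrp1 (root mean square difference 0.237), Fam26f (0.290) and Ly6c2 (0.305). Rhob, Lgals3, Psen2, Sorl1 and Unc119 followed, at up to 0.342, where the median candidate was at 1.11. Pglyrp1, an antibacterial protein of granulocytes, was at 32.0, 50.8 and 12.4 FPKM in wild-type tumours 1, 2 and 4 and at 39.9, 74.0 and 121.5 FPKM in knockout tumours 5, 7 and 8. Like C1q, Pglyrp1 was highest in knockout tumours 8 and 7 and lowest in wild-type tumour 4. The neutrophil list that holds Pglyrp1 had another order, with a sum of 3464 FPKM in wild-type tumour 2 and 306.8 FPKM in knockout tumour 8. C1qa, C1qb and C1qc were 1.46, 1.85 and 1.42 from the mean profile of that list. Nearest to the mean of Spic and Slc40a1 were Mospd3 (0.164), Vma21 (0.178), Eci1 (0.188), Ndufaf1, Mettl16, Hhex, Prpsap1 and Pts, at up to 0.252, with the median candidate at 0.705. The mean of Spic and Slc40a1 itself varied little, with a root mean square of 0.508, because its 2 genes were ordered differently. The nearest of many candidates over 6 points lie close to any profile, so these names describe likeness alone.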

How the data were processed

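Polyadenylated RNA of 12 mouse T-ALL samples was sequenced with strand-specific libraries, per the labels' protocols. The authors deposited FPKM values of 23174 genes in 2 tables of 6 samples. Per the submitters' processing notes, CASAVA, TopHat and the build mm9 were used. Which program, annotation and strand setting gave the FPKM values is not given in the sources used here. FPKM values give no read totals, so depth is unknown. The steps between low values gave relative depths of 1, 0.908, 0.757, 1.06, 1.25 and 1.21 for vehicle samples 1 to 3 and AMD3100 samples 1 to 3. Relative depths of the tumours are not given here.

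FPKM values are not counts, so log2(FPKM + 1) was tested with limma 3.58.1 in R 4.3.3 (empirical Bayes with a mean trend, two-sided). Each table was fitted alone over genes averaging 1 FPKM or more, 10741 in the tumours and 10245 ex vivo. P-values were adjusted by Benjamini-Hochberg over those genes, with a call under 0.05. The script was tested on simulated data. No exact permutation test was run, since with 3 samples a group its smallest two-sided p is 0.1.

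The ex vivo groups share replicate numbers. The deviations from the group means were correlated in each same-numbered pair (0.467, 0.579 and 0.619, other pairs -0.473 to 0.0455). A paired fit, with the number as a replicate block, is therefore given beside the unpaired one, although what the numbers mark is not labelled. Tumours of different genotype have no number in common.

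The 9 genes and the gene lists were chosen with earlier results of these data known. Named genes were the 9, the 3 most abundant kept genes and any called gene of each list, and the 8 genes nearest in profile to the C1q mean and to the mean of Spic and Slc40a1. Some genes named by this rule are left out. Fcna, Timd4, Vsig4, Trem2, Clec4f, C1s, Serping1, Treml4, Itgad, Hmox1 and Bach1 fall outside it in the tumours and were chosen after their values were seen. Markers of other blood cells were listed for monocytes, neutrophils, dendritic, erythroid, B, T and NK cells, platelets and stroma. Of these 9 lists, none held a called gene in the tumours or, without the block, ex vivo, and each had 0 to 2 genes at an unadjusted p under 0.05 in limma.

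Promoters come from a RefSeq table of build GRCm38.p6. They were not joined to the expression tables by coordinates, and the motifs were chosen after the sequences were seen. Alternatives were other pseudocounts, filters, scalings and variance models, the block, and leaving out each library.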

Additional observations from a re-analysis of the deposited data

How the results depend on the processing

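Of the 9 genes, 0 were called under each of 14 alternatives in the tumours and 16 ex vivo. C1qa and C1qc kept log2 changes above 0 wherever they were fitted, at 1.31 to 2.79 and 0.75 to 2.07, with adjusted p from 0.589 to 1. The directions of the other 6 tested genes in the tumours rested on single libraries. Leaving out 1 tumour at a time gave -0.28 to 1.41 for Csf1r, -0.42 to 0.45 for Cd68, -1.64 to 2.14 for Lyz2, -0.83 to 1.25 for C1qb, -0.86 to 0.62 for Spic and -0.60 to 1.00 for Slc40a1. The sign turned without wild-type tumour 4 for Csf1r, Lyz2 and C1qb, without wild-type tumour 1 for Slc40a1 and Spic, without wild-type tumour 2 for Cd68 and Spic, without knockout tumour 7 for Cd68 and without knockout tumour 8 for C1qb and Spic. Spic also turned with quantile scaling, to 0.12. Scaling to the summed FPKM without haemoglobin genes moved the median change of all genes from -0.026 to -0.144. A minimum of 5 FPKM left out C1qa and Spic in the tumours and every one of the 9 ex vivo. Of all genes, 4 were called in the tumours, against 0 with no minimum and 0 to 4 with 1 tumour left out. Ex vivo 13 were called, against 8 with no minimum, 188 with a minimum of 5 FPKM, 3 with quantile scaling, 5 with scaling without haemoglobin, 1 without the trend and 3 to 5 with 1 sample left out. With the replicate block 2036 were called, and with the block and median-of-ratios scaling 2033. The causes were not tested. Cd68 ex vivo kept a change of 0.38 to 0.71, with adjusted p from 0.110 to 0.504. The unknown depth limits every value under about 1 FPKM.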
